A study of Homo sapiens with 4 samples.

Results

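The E2F, MYB and FOXM1 transcription factors of the cell cycle were examined by RNA-seq in U87MG glioblastoma (GBM) cells. They comprised E2F1, E2F2, E2F3, E2F7, E2F8, TFDP1, MYBL1, MYBL2, LIN9 and FOXM1, which were chosen by name, and all 10 of them were among the 58213 gene IDs common to the deposited tables.

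E2F proteins bind DNA together with a DP partner, such as the product of TFDP1, and switch genes of DNA replication on as cells pass from G1 into S phase. The pocket proteins RB1, RBL1 and RBL2 hold them back until cyclin-dependent kinases (CDKs) phosphorylate them. E2F1, E2F2 and E2F3 are the activators, whereas E2F7 and E2F8 bind without DP and repress the same kind of genes later in S phase. In S and G2 the MuvB core complex, which contains LIN9, joins B-MYB (the product of MYBL2) and then FOXM1 to switch on the genes of mitosis. MYBL1 encodes A-MYB, a relative of B-MYB best known from the testis. Cells that leave the cycle lower most of these transcripts, and in gliomas high FOXM1 and MYBL2 accompany rapid growth.

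The series holds 4 libraries, 1 per condition, from U87MG, a human GBM cell line, and from R-U87MG, its derivative selected for resistance to temozolomide (TMZ), an alkylating drug, and kept in 50 μM of it. R-U87MG cells received a non-targeting siRNA (si-NC) or si-HDAC6, which targets the mostly cytoplasmic deacetylase HDAC6. The parental line was given si-NC or, to deplete a long non-coding RNA, si-*LINC00461*. RNA was taken 72 h after transfection, and the siRNA concentration used for these libraries, out of the several in the study's methods, is not given in the sources used here.

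With 1 library per condition there was no replicate check and no test of a condition. The counts and intervals therefore describe these 4 libraries. Intervals are 95% exact (Clopper-Pearson) intervals of the split of a gene's counts between both libraries, or of its share of one library. They cover counting error only, and fragments copied by PCR are not independent molecules. The libraries held between 12596072 and 20027865 counts, and 3 counts corresponded to between 0.150 and 0.238 counts scaled to a library of 1000000 (CPM). Counts of HDAC6 were 296 in the R-U87MG control and 67 after its siRNA, which gives a log2 ratio of −1.74 (−2.16 to −1.36). Counts of *LINC00461* were 363 in the U87MG control and 73 after its siRNA, and the log2 ratio was −2.12 (−2.51 to −1.76). All 5 glioma line markers checked (VIM, NES, CD44, S100A6 and TNC) had over 3 counts in every library. In bulk RNA, fewer cycling cells and less RNA of a gene in each cycling cell cannot be told apart.

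Promoter sequences were taken from RefSeq (GRCh38.p14), which gave windows from 250 bases before to 50 bases after a start site for 7 of the 10 genes. E2F8, FOXM1 and MYBL1 had no entry. The E2F words searched were TTTCCCGC, TTTGGCGC, TTTCGCGC and TTTGCCGC, on both strands, and 3.31% of 35116 promoter windows of the same length held at least 1 of them. The shorter E2F core GGCGGGA, also searched on both strands, can overlap an E2F word and was present in 15.4% of windows. Runs of 30 bases are shown for 6 genes whose levels are described below, because they hold the words through which E2F proteins bind, or, for E2F7, a CCAAT box, the site of the factor NF-Y. CCAAT, on either strand, was present in 34.6% of windows. Each run reads 5′ to 3′ along the strand of its gene, with the match in capitals.
E2F1 (chr20:33686394-33686423, minus strand, 2 E2F words): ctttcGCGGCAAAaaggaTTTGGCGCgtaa
E2F2 (chr1:23531257-23531286, minus strand, E2F word): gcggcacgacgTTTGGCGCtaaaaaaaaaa
E2F3 (chr6:20401814-20401843, plus strand, E2F word and overlapping core): tttgaaaagccGGCGGGAAAtccgagtttc
TFDP1 (chr13:113584622-113584651, plus strand, E2F word): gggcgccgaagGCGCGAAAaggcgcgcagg
MYBL2 (chr20:43667063-43667092, plus strand, E2F core): gccgacgcgcttGGCGGGAgatagaaaagt
E2F7 (chr12:77065607-77065636, minus strand, CCAAT read on the other strand): ccggccgccgctgATTGGtggattctcaaa

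The E2F words of E2F1 lay 33 to 26 and 20 to 13 bases before its start, and that of E2F2 lay 42 to 35 bases before. In E2F3 the word lay 53 to 46 bases before the first of its 2 start sites, from which the longer protein is made, and in TFDP1 it lay 120 to 113 bases before. MYBL2 held the core 39 to 33 bases before its start and no full word. The core was also found in windows of E2F1, E2F3, TFDP1 and LIN9, where 1 of 3 windows held it at 217 to 211 and at 104 to 98 bases before the start, further upstream than in MYBL2. E2F7 held 4 CCAAT boxes and neither E2F motif in its window. CCAAT was not particular to E2F7. Among other matches, it also lay 70 to 66 bases before the E2F1 start and 123 to 119 bases before the first E2F3 start. The CHR motif of MuvB (TTTGAA or TTCGAA, on both strands) was present in 16.4% of all windows. It lay 65 to 60 bases before the first E2F3 start, and in 1 of the 3 windows of LIN9. A match is a description of the letters, and binding was not measured.

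**Figure D1:**
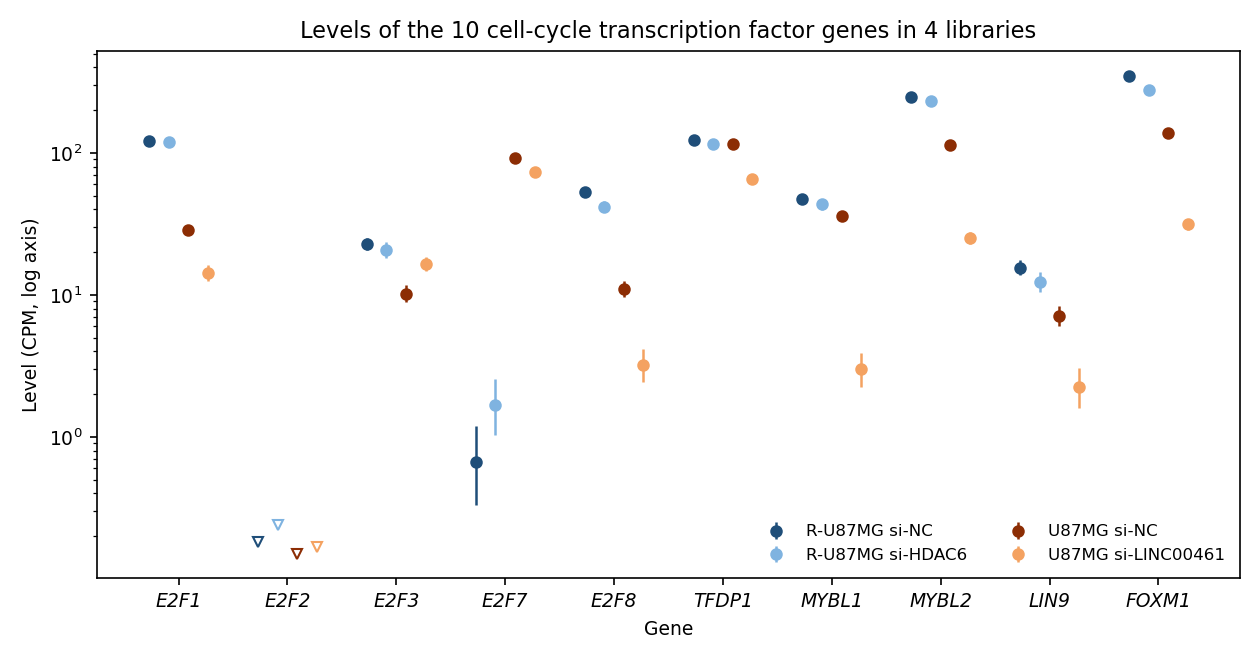
Level of each of the 10 genes (CPM, log axis) in the 4 libraries, with 95% exact intervals that are often smaller than the symbol. Open triangles mark genes at 3 counts or fewer and are drawn at the level of 3 counts. E2F7 is far lower in both R-U87MG libraries, and MYBL1, MYBL2, FOXM1, E2F8, LIN9, E2F1 and TFDP1 are lowest in U87MG si-*LINC00461*.

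Among the activators, E2F1 (ENSG00000101412, chr20:33675683-33686404, minus strand, GRCh38, GENCODE 29) was the main E2F transcript of R-U87MG. It had 122 CPM in R-U87MG si-NC, 119 CPM in R-U87MG si-HDAC6, 28.8 CPM in U87MG si-NC and 14.3 CPM in U87MG si-*LINC00461*. Both R-U87MG libraries were thus well above both U87MG libraries. E2F3 (ENSG00000112242, chr6:20401906-20493715, plus strand) had 22.8, 20.7, 10.2 and 16.5 CPM in the same order, and its 2 start sites could not be told apart from counts per gene. Its processed copies E2F3P1 and E2F3P2 had 0 counts and at most 5 counts, respectively. E2F2 (ENSG00000007968, chr1:23506430-23531220, minus strand) had 0, 2, 0 and 0 counts, so it was not detectable above the level of 3 counts in any library and no fold was computed.

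The repressors were distributed differently from each other. E2F8 (ENSG00000129173, chr11:19224063-19241620, minus strand) had 53.0 CPM in R-U87MG si-NC, 41.8 CPM after si-HDAC6, 11.04 CPM in U87MG si-NC and 3.21 CPM after si-*LINC00461*. The antisense gene AC009652.2, which overlaps E2F8, had 0 counts in all 4 libraries. E2F7 (ENSG00000165891, chr12:77021247-77065580, minus strand) had 0.661, 1.67, 92.3 and 73.2 CPM in that order, the opposite split between the lines. TFDP1 (ENSG00000198176, chr13:113584721-113641470, plus strand), the DP partner, had 65.4 CPM in U87MG si-*LINC00461* and 123, 115 and 116 CPM in the 3 other libraries. In CPM these 3 levels varied least of the 9 detected genes, but that ranking depends on the scaling. With the TMM scaling used for the ratios below, the controls differed by −0.18 in log2 for TFDP1 and by 0.14 for MYBL1.

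MYBL2 (ENSG00000101057, chr20:43667019-43716496, plus strand) had 248 CPM in R-U87MG si-NC, 231 CPM after si-HDAC6, 114 CPM in U87MG si-NC and 25.3 CPM after si-*LINC00461*. FOXM1 (ENSG00000111206, chr12:2857681-2877155, minus strand) had 346, 276, 138 and 31.4 CPM. Its annotated ends overlap the genes RHNO1 and ITFG2, and the strand setting of the counting is not given in the sources used here. RHNO1 had 924, 637, 601 and 309 counts in the same order of libraries, and ITFG2 had 245, 195, 319 and 244. LIN9 (ENSG00000183814, chr1:226231149-226309869, minus strand), the scaffold of MuvB, was low throughout, at 15.6, 12.3, 7.14 and 2.25 CPM. These 3 genes followed one order of libraries, from R-U87MG si-NC down to U87MG si-*LINC00461*, and neighbouring levels had intervals that did not overlap except for LIN9 between the R-U87MG libraries. The order was not particular to them. E2F8, E2F1 and MYBL1 had the same order in CPM, and the neighbouring intervals of E2F8 did not overlap either.

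The controls of both lines lay closer together for A-MYB. MYBL1 (ENSG00000185697, chr8:66562175-66614247, minus strand) had 47.1 CPM in R-U87MG si-NC, 43.3 CPM after si-HDAC6 and 35.6 CPM in U87MG si-NC, but 2.98 CPM in U87MG si-*LINC00461*.

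Compared per kilobase of exon, MYBL2 was the highest of the 10 genes in 3 libraries, at 89.2 CPM per kilobase in R-U87MG si-NC, 83.2 in R-U87MG si-HDAC6 and 41.2 in U87MG si-NC. FOXM1 followed at 70.7 and 56.4 in the R-U87MG libraries, where E2F1 came next at 48.8 and 47.6. After si-*LINC00461* this order changed. TFDP1 was then highest at 17.5 CPM per kilobase and E2F7 second at 11.6, ahead of MYBL2 at 9.10 and FOXM1 at 6.41.

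The make-up of the E2F family on the per-kilobase scale differed between the lines. E2F1 made up 46.95% of the summed E2F1 to E2F8 level in R-U87MG si-NC and 20.8% in U87MG si-NC. E2F7 made up 0.101% and 26.4%, respectively. E2F4, a member that mostly works with the pocket proteins RBL1 and RBL2 as a repressor, made up 29.1% and 37.1%. The summed level was 104 CPM per kilobase in R-U87MG si-NC and 55.4 in U87MG si-NC. After si-*LINC00461* the sum was 56.1, while the share of E2F4 was 50.6% and that of E2F1 was 10.2%. The sum therefore stood near that of its control although its parts did not. After si-HDAC6 the shares of E2F1 and E2F4 were 47.3% and 31.1%, near those of its control.

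**Figure D2:**
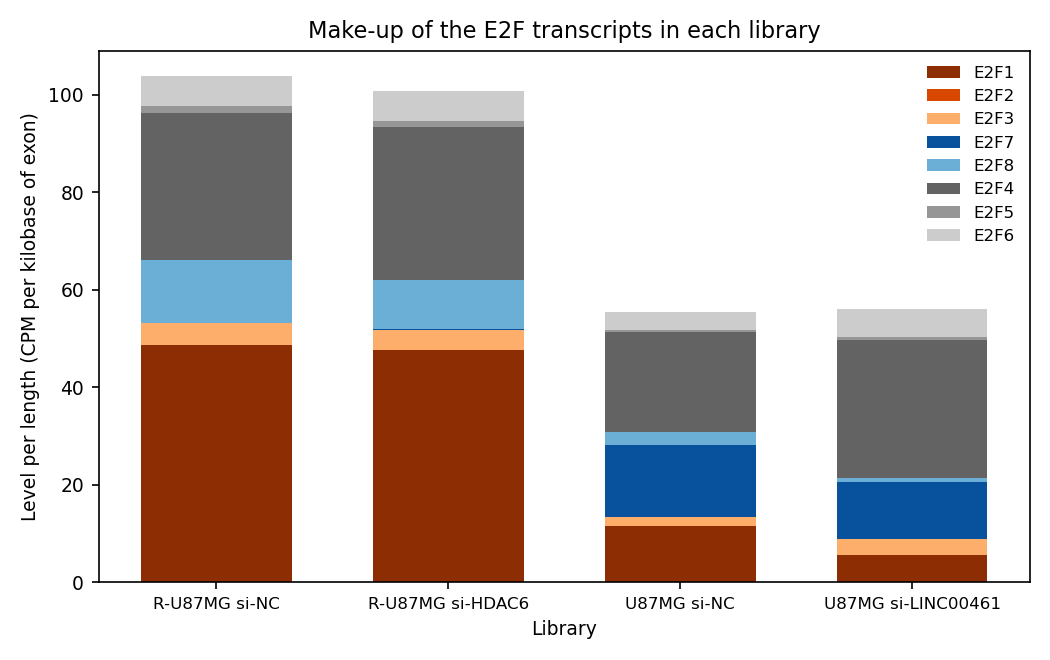
Stacked level per length (CPM per kilobase of exon) of E2F1 to E2F8 in each library, without error bars. E2F1 is the largest part in both R-U87MG libraries and E2F4 in both U87MG libraries. E2F7 (dark blue) is visible in both U87MG libraries and nearly missing from the R-U87MG ones.

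The first comparison asked how these factors stood after HDAC6 depletion in R-U87MG cells. Of the 10 genes, 9 had a mean of at least 1 CPM over both libraries and were compared, E2F2 being the exception, and ratios were normalized with TMM. No gene was at least 2-fold lower, where 0.747% of the 13120 genes compared were, and 1 was at least 2-fold higher, where 0.694% were. That 1 gene was E2F7, which had 11 counts in si-NC and 21 after si-HDAC6, a log2 ratio of 1.29 (0.21 to 2.52). It had 0.661 and 1.67 CPM, so it passed the filter only through the library in which it was higher, and it was rare in both.

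The lowest ratios were those of E2F8, LIN9 and FOXM1. FOXM1 had 5762 counts in si-NC and 3479 after si-HDAC6, a log2 ratio of −0.34 (−0.40 to −0.28). E2F8 had 882 and 527 counts, with −0.35 (−0.51 to −0.19). LIN9 had 259 and 155 counts, with −0.35 (−0.65 to −0.06). MYBL2 lay closer to its control, at −0.11 (−0.18 to −0.04). TFDP1 was at −0.10, with an upper bound of −0.0014. Total counts in place of TMM raised every log2 ratio here by 0.010, so whether the TFDP1 interval excluded 0 depended on the scaling. With TMM the intervals of 5 members, TFDP1 among them, lay wholly below 0, compared with 16.4% of all genes. That of 1 lay wholly above, compared with 13.8%. For E2F1 (−0.04, −0.14 to 0.05), E2F3 (−0.15, −0.38 to 0.08) and MYBL1 (−0.13, −0.29 to 0.03) the intervals included 0. The median of the 9 members was −0.13, and that of all genes compared was −0.0057. Within the library, FOXM1 was lower relative to MYBL2 after si-HDAC6, with a log2 change of their ratio of −0.23 (−0.32 to −0.13).

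The second comparison asked the same of *LINC00461* depletion in parental U87MG cells. Here 5 of the 9 compared genes were at least 2-fold lower, where 8.17% of the 13210 genes compared were, and 0 were at least 2-fold higher, where 5.42% were. The 5 were MYBL1, MYBL2, FOXM1, E2F8 and LIN9. All 5 also had intervals wholly beyond 2-fold, compared with 4.78% of all genes lower and 2.88% higher by that rule. The median of the 9 members was −1.64, and that of all genes compared was −0.0026.

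MYBL1 showed the largest difference. Its counts were 714 in the control and 53 after the siRNA. The log2 ratio was −3.55 (−4.00 to −3.16), or 11.7-fold lower, and ranked 6 from the lowest among all 13210 genes. MYBL2 had 2293 and 449 counts, with a log2 ratio of −2.16 (−2.31 to −2.02). MYBL1 was thus lower relative to MYBL2 as well, by a log2 change of −1.40 (−1.86 to −0.97) in their ratio. FOXM1 had 2772 and 558 counts, with −2.12 (−2.26 to −1.99), and its ratio to MYBL2 differed by 0.04 (−0.16 to 0.24). The FOXM1 and MYBL2 transcripts were therefore lower by amounts that the counts did not separate. LIN9 had 143 and 40 counts, with −1.64 (−2.19 to −1.14).

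The E2F genes spread in both directions. E2F8 had 221 and 57 counts in the control and the knockdown, with −1.76 (−2.21 to −1.34). E2F1 had 577 and 254 counts, and its log2 ratio of −0.99 (−1.22 to −0.78) was just short of 2-fold. It passed 2-fold with total counts (−1.01), DESeq2 size factors (−1.03) and the values as deposited (−1.002), each of which gave 6 members at least 2-fold lower. E2F3 was the only member above its control, with 204 and 294 counts and a log2 ratio of 0.71 (0.45 to 0.98). E2F7 had 1849 and 1302 counts, with −0.32 (−0.42 to −0.22), so both repressors were below their control by unequal amounts. The ratio of E2F7 to E2F8 differed by 1.45 (1.01 to 1.91) on the log2 scale. TFDP1 had 2323 and 1163 counts, with −0.81 (−0.91 to −0.71), while its relative TFDP2 had 885 and 1107 counts, with 0.51 (0.38 to 0.64).

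**Figure D3:**
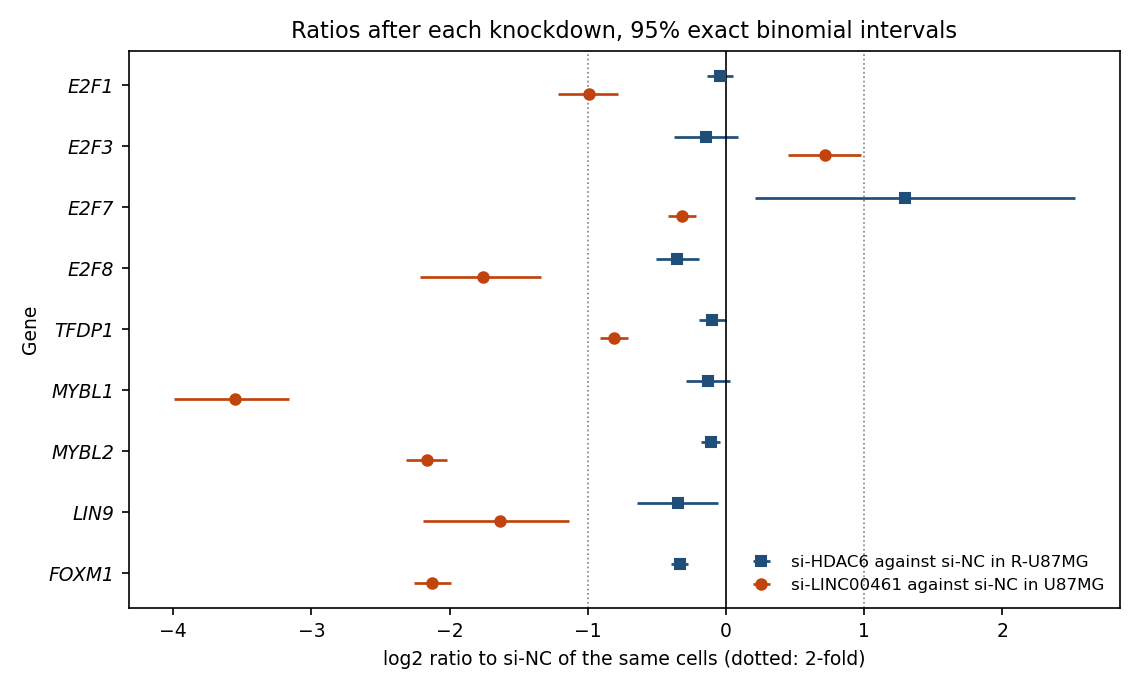
Log2 ratio to si-NC of the same cells for the 9 compared genes after si-HDAC6 in R-U87MG (squares) and si-LINC00461 in U87MG (circles), with 95% exact intervals of counting error and dotted lines at 2-fold. MYBL1 lies furthest left at −3.55 after si-LINC00461, and E2F3 lies right of 0 at 0.71.

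The 2 knockdowns shared no library but were made in different cells, so the targeted gene and the cell line cannot be told apart between them. *LINC00461* itself was at −0.55 (−0.96 to −0.15) after si-HDAC6, and HDAC6 was at −0.08 (−0.25 to 0.09) after si-*LINC00461*. In the R-U87MG control HDAC6 was at −1.13 and *LINC00461* at −1.23 relative to the U87MG control. The part of these levels in the factor ratios was not tested. The log2 ratio after si-*LINC00461* minus that after si-HDAC6 had an interval that excluded 0 for all 9 genes. The share of all genes with such an interval was not computed, so this count is not read as a result about the members. For E2F7 the difference of −1.64 (−2.85 to −0.52) rests on 11 and 21 counts in R-U87MG. The difference was −3.43 (−3.89 to −2.996) for MYBL1, −2.05 (−2.22 to −1.89) for MYBL2 and −1.79 (−1.94 to −1.64) for FOXM1. It was smaller for E2F1, at −0.95 (−1.19 to −0.72), and for TFDP1, at −0.71 (−0.85 to −0.57). E2F3 was the 1 gene with a positive difference, at 0.86 (0.51 to 1.22).

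The target genes and partners of these factors were described from lists chosen with earlier results of these data known. After si-*LINC00461*, 20 of 27 G1/S targets of E2F were at least 2-fold lower (8.17% of all genes compared) and 0 were higher (5.42%), with a median log2 ratio of −1.57. TYMS, the enzyme that makes thymidylate, was lowest at −3.38 (−3.71 to −3.09), and CCNE1, which encodes cyclin E1, was highest at 0.18 (−0.14 to 0.49). Of 30 G2/M targets of B-MYB, MuvB and FOXM1, 28 were at least 2-fold lower and 0 were higher, against the same shares of all genes, with a median of −2.57. CDC25C, a phosphatase that activates CDK1, was lowest at −3.08 (−4.33 to −2.16). CDC25B, its relative, was highest at −0.12 (−0.27 to 0.02).

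After si-HDAC6, 0 of the 27 G1/S targets and 0 of the 30 G2/M targets were at least 2-fold lower or higher. Of all genes compared, 0.747% were lower and 0.694% were higher by that rule, so counts of 0 are near these shares. The medians of the G1/S and G2/M lists were −0.19 and −0.25. With TMM, 19 and 24 of their genes had intervals wholly below 0, compared with 16.4% of all genes. CHEK1, the checkpoint kinase, was lowest of the G1/S list at −0.44 (−0.64 to −0.24), and NEK2, a centrosome kinase, was lowest of the G2/M list at −0.49 (−0.64 to −0.33). CCNE2, which encodes cyclin E2, was highest of the G1/S list at 0.24 (−0.03 to 0.52), and CDC25B of the G2/M list at 0.26 (0.17 to 0.36).

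The other E2F, DP, pocket protein and MuvB genes differed less evenly. Among 7 other E2F, DP and pocket protein genes, 1 was at least 2-fold lower after si-*LINC00461* and 0 were higher, with a median of 0.48. Counts of 1 and 0 among 7 are near the 8.17% and 5.42% of all genes. The 1 was RBL1, which encodes the pocket protein p107, at −1.24 (−1.41 to −1.07). RBL2, another pocket protein gene, was just short of 2-fold, at −0.998 (−1.13 to −0.87) with 1624 and 714 counts. Of the 7 genes, 3 were below 0 and 4 were above. E2F5, which acts with pocket proteins, was highest at 0.86 (0.31 to 1.44). After si-HDAC6 none of the 7 was at least 2-fold lower or higher, near the 0.747% and 0.694% of all genes. The median was −0.048, and the extremes were RBL1 at −0.34 (−0.44 to −0.23) and E2F4 at 0.04 (−0.06 to 0.14). Of 5 other MuvB core genes and MYB, 4 were compared after si-*LINC00461*. LIN54, the DNA-binding subunit, was lowest at −0.60 (−0.79 to −0.42) and LIN52 was highest at 0.73 (0.49 to 0.98), so MuvB subunits differed in opposite directions. After si-HDAC6 all 5 were compared and lay between −0.25 for LIN54 and 0.47 for LIN37. The LIN37 value after si-HDAC6 was not a whole fragment number, whereas that of its control was.

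Of 7 CDK inhibitor genes only CDKN1A, CDKN1B and CDKN2D had enough counts to compare. CDKN1B, which encodes p27, was at 0.75 (0.67 to 0.83) after si-*LINC00461* and at 0.23 (0.08 to 0.37) after si-HDAC6. CDKN2D was lowest of the 3, at −0.45 (−0.67 to −0.23) and −0.17 (−0.47 to 0.12).

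Markers of other cell types were read beside the si-*LINC00461* result. Of 7 such markers, 3 had over 3 counts in every library, and 2 or 3 were at 0. Their summed level was 27.3 CPM after si-*LINC00461* and between 3.49 and 5.99 CPM in the 3 other libraries, with PECAM1 at a log2 ratio of 3.23 (2.83 to 3.69). The other markers compared, EPCAM and MBP, were at −0.09 (−0.96 to 0.75) and −0.31 (−1.10 to 0.44), and PECAM1 made up 24.4 of the 27.3 CPM. The summed level of the glioma line markers was 7862 CPM there and between 11434 and 12073 CPM elsewhere. Of the 5, VIM (−0.98) and TNC (−0.58) were below their control, while S100A6 (0.27), CD44 (0.12) and NES (0.03) were not, and the median was 0.028. The part of these differences in the lower factor levels was not tested.

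The controls of both lines were then set side by side. This comparison shares its libraries with the knockdown comparisons, and in it the cell line, the culture with TMZ and the pair of tables, which the authors scaled separately, cannot be told apart. It also depends on the scaling, since total counts in place of TMM raised every log2 ratio by 0.26. With TMM, 3 of the 9 compared genes were at least 2-fold higher in R-U87MG si-NC than in U87MG si-NC, where 11.2% of 13349 genes were, and 1 was at least 2-fold lower, where 15.0% were. By intervals wholly beyond 2-fold, 2 were higher and 1 was lower, compared with 6.34% and 10.8% of all genes. The median of the members was 0.86, and that of all genes was 0.019.

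E2F8 was highest. Its counts were 882 in the R-U87MG control and 221 in the U87MG control, and its log2 ratio was 1.998 (1.79 to 2.22). E2F1 had 2031 and 577 counts, with 1.82 (1.69 to 1.96), and FOXM1 had 5762 and 2772, with 1.06 (0.99 to 1.13). E2F3 (0.90), LIN9 (0.86) and MYBL2 (0.85) were higher by less than 2-fold with TMM. With total counts these 3 passed 2-fold, at 1.16, 1.12 and 1.11, so that 6 members were at least 2-fold higher. MYBL1 was at 0.14, with an interval from −0.0096 to 0.29, and at 0.40 with total counts. TFDP1 was at −0.18 (−0.27 to −0.10) with TMM and at 0.08 with total counts, so its direction depended on the scaling.

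E2F7 stood apart from all of them. Only 11 of its counts were found in the R-U87MG control against 1849 in the U87MG control, for a log2 ratio of −7.33 (−8.39 to −6.55), or 160-fold lower. Its partner repressor E2F8 differed in the other direction, so that the ratio of E2F7 to E2F8 differed by −9.38 (−10.4 to −8.51) on the log2 scale. By log2 ratio E2F7 ranked 54 from the lowest among the 13349 genes compared, so other genes were lower still. Of 4079 genes with at least 1000 counts in U87MG si-NC, the library in which E2F7 was high, 6 others had a log2 ratio at least as low. The 10 nearest expressed protein-coding genes, 5 on each side and chosen after the value of E2F7 was seen, had a median log2 ratio of 0.0063. They ranged from −1.92 (−2.49 to −1.41) for SYT1 to 1.89 (1.75 to 2.04) for NAV3. The adjacent genes were CSRP2, at −0.73 (−1.15 to −0.32), and NAV3. None of the 10 was as low as E2F7.

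**Figure D4:**
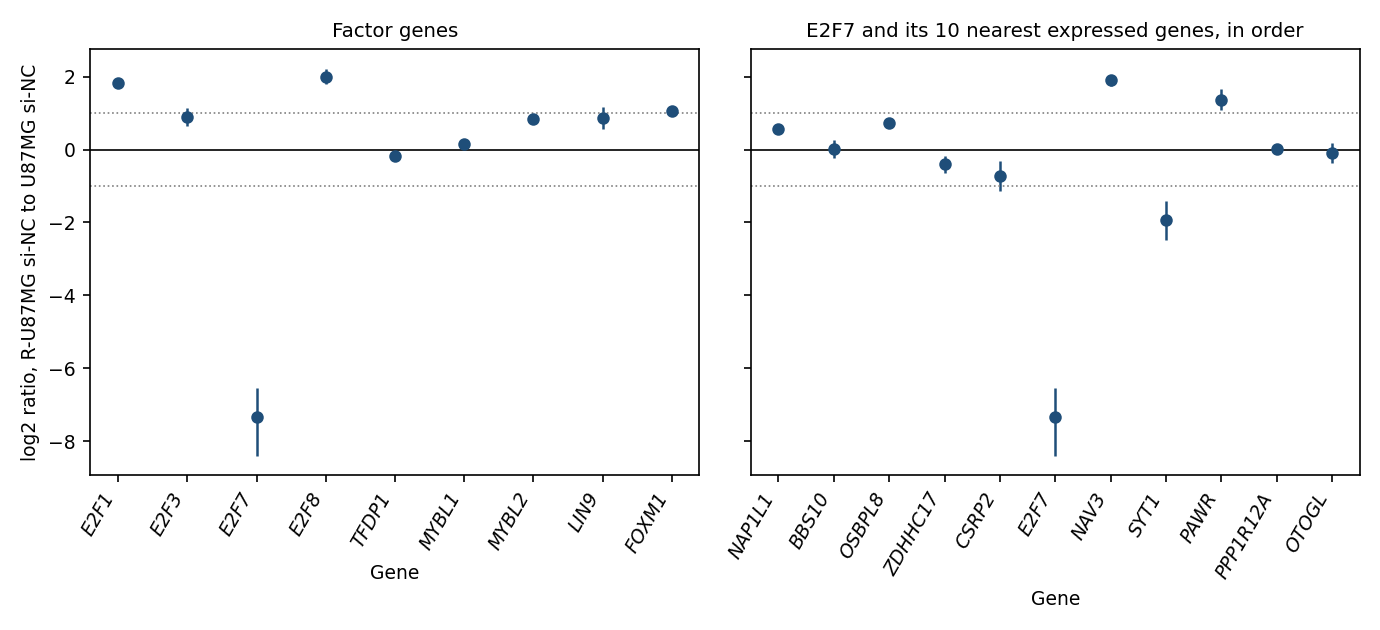
Log2 ratio of R-U87MG si-NC to U87MG si-NC, with 95% exact intervals of counting error and dotted lines at 2-fold, for the 9 compared factor genes (left) and for E2F7 and its 10 nearest expressed genes in chromosomal order, evenly spaced (right). E2F7 lies at −7.33, and its neighbours lie between −1.92 and 1.89.

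The target lists were higher in R-U87MG si-NC. Of 27 G1/S targets 15 were at least 2-fold higher (11.2% of all genes) and 0 lower (15.0%), with a median of 1.01, from TK1 at 0.21 (0.11 to 0.32) to CCNE2 at 2.43 (1.97 to 2.95). Of 30 G2/M targets 9 were at least 2-fold higher and 0 lower, against the same shares, with a median of 0.83, from UBE2C at 0.47 (0.35 to 0.59) to CENPE at 1.41 (1.31 to 1.52). The 3 CDK inhibitor genes compared were split. CDKN1B, at −1.45 (−1.57 to −1.34), and CDKN2D, at −0.83 (−1.07 to −0.60), differed in the other direction from the targets. CDKN1A was at 0.19 (0.14 to 0.24). Among the other E2F, DP and pocket protein genes, E2F5 was highest at 1.599 (1.11 to 2.13) and RBL2 was lowest at −0.40 (−0.51 to −0.29).

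Over the 4 libraries, the genes with a profile nearest to FOXM1 were WDR62, MELK and BRIP1, with root mean square differences of 0.031, 0.051 and 0.052 on the centred log2 scale among 10848 genes. WDR62 encodes a spindle pole protein, MELK a mitotic kinase and BRIP1 a DNA helicase. The nearest to MYBL2 were REXO5, BRIP1 and SGPP1 (0.047, 0.051 and 0.057), and the nearest to E2F1 were KBTBD8, PLK2 and RNF157 (0.052, 0.058 and 0.059). With 4 libraries this likeness is a description of these samples.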

How the data were processed

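The authors sequenced 1 strand-specific RNA-seq library for each of 4 conditions. The submitters' processing notes name bcl2fastq, Trimmomatic 0.36, HISAT2 and GRCh38.p13, and the counting program is not given in the sources used here. The deposited values are estimated counts per gene that the authors multiplied by 1 factor per library. In R-U87MG the factor was 0.869 (control) and 1.15 (knockdown), and in U87MG it was 0.939 and 1.06, each pair being scaled separately. The design had assumed raw counts, so values were divided by that factor and rounded. Of the values above 0, between 94.2% and 94.5% lay within 0.02 of a whole number. For large values that bound was wider, to allow for the rounding of the deposited digits. All 10 members met this rule in every library. Symbols, positions and exon lengths came from GENCODE 29.

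TMM factors came from edgeR 4.0.16 (R 4.3.3), separately for each comparison. Ratios are log2 values of (count + 0.5) over effective library size, a scale on which low genes change less than their counts do. The filter was a mean of 1 CPM or more, and the call was a ratio of 2-fold or more. Intervals were exact (Clopper-Pearson). The difference between knockdowns had an exact conditional interval. No model or test was fitted, since each condition had 1 library.

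The members and lists were chosen with earlier results of these data known, and the promoter motifs, the runs shown and the neighbours of E2F7 after values were seen. The cut of 1000 counts used for E2F7 was not part of the design. Genes named are the 10 members, both targeted genes, the lowest and highest gene of each pathway list, the 3 genes of at least 5 CPM nearest in profile to E2F1, MYBL2 and FOXM1, and, outside this rule and chosen after their values were seen, TFDP2, the neighbours of E2F7, the genes that overlap or copy a member (RHNO1, ITFG2, AC009652.2, E2F3P1 and E2F3P2) and the cell type markers. Alternatives were total counts, upper-quartile scaling, DESeq2 1.42.0 size factors, pseudocounts of 0.1 and 5, other filters, 1.5-fold, intervals wholly beyond 2-fold and the values as deposited. Leaving out genes without whole fragment numbers, and leaving out E2F7, were added once the data had been seen. Python 3.11.15, numpy 2.4.6, pandas 2.3.3, scipy 1.17.1 and matplotlib 3.10.9 were used. The authors' other assays were not used here.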

Additional observations from a re-analysis of the deposited data

How the results depend on the processing

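The single library per condition is the main limit, and depth limits E2F2, E2F7 in R-U87MG, and LIN9. No paired analysis was possible because each condition had 1 library, and no library could be left out. After si-HDAC6 the count of members at least 2-fold higher was 1, and it was 0 with a mean of at least 5 CPM, which leaves E2F7 out, and 0 with intervals wholly beyond 2-fold. After si-*LINC00461* the count of members at least 2-fold lower was 5, and it ranged from 4 with a mean of at least 5 CPM to 7 at 1.5-fold, with 6 under total counts, DESeq2 size factors and the values as deposited. The count higher was 0 at 2-fold and 1 at 1.5-fold (E2F3). Between the lines 3 members were at least 2-fold higher, against 6 with total counts and 6 at 1.5-fold. The share of all genes was not computed at 1.5-fold, with the 5 CPM filter or under the other scalings. These counts of members therefore have no background beside them. Total counts moved 7 of 45 values of single members in the comparison between the lines, each by the shift of 0.26. In either knockdown, 54 of 54 such values stayed within their counting interval. The largest moves came with a pseudocount of 5, which gave E2F7 −6.85 between the lines and 1.09 after si-HDAC6, and LIN9 −1.53 after si-*LINC00461*.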
